A study of Mus musculus with 12 samples.

Results

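The Bcl2 family decides whether a cell lives or dies through its mitochondria, and its members were followed here through 24 h of induced myeloid maturation. The members are the survival proteins Bcl2, Bcl2l1 (Bcl-xL), Mcl1 and the Bcl2a1 paralogues (A1), the pore-forming effector Bak1, and the BH3-only death signals Bcl2l11 (Bim), Bid and Bad. They were chosen by the gene name printed beside each probe of the array: 18 probes of 9 genes carried the name of a member, out of 41174 probes, and all 18 were bright enough to be tested among 22362. Bcl2a1d, the tenth gene listed, had no probe of its own name.

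RNA came from PUER cells, a mouse myeloid line derived from cells that lack the transcription factor PU.1. All cells carry PU.1 joined to the hormone-binding domain of the estrogen receptor and were grown in interleukin-3 (IL-3). 4-hydroxytamoxifen (4-OHT) switches the fusion on, and the cells then mature. The cells had been infected with a control retroviral vector or with one that expresses a short hairpin RNA (shRNA) against Hnrnpa0 and were sorted for the GFP the vectors carry. RNA of each vector was taken either ahead of 4-OHT or once cells had spent 24 h with it at 2 nM, which gives 4 groups of 3 arrays (replicates A, B and C, described as separate clones for each vector). A vehicle is mentioned in the protocol, yet no array is labelled as vehicle-treated, so 4-OHT itself and 24 h of further culture cannot be told apart from activation of the fusion. A p-value measures the spread between clones of 1 line.

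In the family's pathway, survival proteins hold the effectors Bak1 and Bax in check at the outer mitochondrial membrane. BH3-only proteins bind the survival proteins, or the effectors directly, and tip the balance towards release of cytochrome c and activation of caspases. Myeloid progenitors are known to depend on cytokine signals for Bcl2 family balance, Mcl1 being needed for survival of many blood cells, and A1 being a short-lived survival protein of maturing myeloid cells.

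The Bcl2a1 genes are close copies, so their probes are shown first. Probe positions are in mouse build mm7, as the array files give them. The probe named Bcl2a1b (A_51_P494241) lies at chr9:88829714-88837575 on the plus strand, a span far longer than its 60 bases, so it crosses an intron. The design lists RefSeq transcripts of Bcl2a1b, Bcl2a1d and Bcl2a1a for it, and its signal cannot be assigned to 1 of these 3 genes. The probe named Bcl2a1c (A_52_P299771) lies unbroken at chr9:113981400-113981459 on the plus strand and lists the RefSeq transcript of Bcl2a1c only. Both are given 5′ to 3′ as deposited, with no part in capitals.
Bcl2a1b probe: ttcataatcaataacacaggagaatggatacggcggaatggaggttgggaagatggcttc
Bcl2a1c probe: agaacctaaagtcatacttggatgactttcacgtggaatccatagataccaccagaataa
The best local match between them in the same orientation was 8 bases long with 7 identical, so each reads a different stretch of these transcripts. No other probe of the array shared a run of 20 bases with either, or with any of the other member probes. Cross-hybridisation to other paralogues was not tested.

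The start regions of the 4 Bcl2a1 genes are shown because the 2 probes moved together and the induced factor, PU.1, is known to bind purine-rich sites with a GGAA core. RefSeq promoter sequences (250 bases before to 50 after the start, build GRCm38.p6) were matched for 11 of 11 genes searched, the 10 listed members and Bcl2a1a, with 15 promoters in all. The letters GAGGAAGTG, searched on both strands, stood in all 4 Bcl2a1 promoters and in none of those of the other members. They stood in 517 of 32851 promoters of the same length, 1.57%. In capitals are the runs of GAGGAA that lead into this word, and the windows run 5′ to 3′ on each gene's own strand.
Bcl2a1a: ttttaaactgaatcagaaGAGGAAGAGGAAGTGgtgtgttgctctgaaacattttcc
Bcl2a1b: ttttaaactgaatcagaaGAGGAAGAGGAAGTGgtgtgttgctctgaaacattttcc
Bcl2a1c: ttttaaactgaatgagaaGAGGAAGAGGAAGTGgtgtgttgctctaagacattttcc
Bcl2a1d: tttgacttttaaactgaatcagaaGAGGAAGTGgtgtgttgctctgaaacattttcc
The windows lie at chr9:88956792-88956848 for Bcl2a1a, chr9:89199101-89199157 for Bcl2a1b, chr9:114329897-114329953 for Bcl2a1c, all on the plus strand, and chr9:88731922-88731978 on the minus strand for Bcl2a1d. The word starts at -104 in Bcl2a1a and Bcl2a1d, -148 in Bcl2a1b and -214 in Bcl2a1c relative to the annotated start. The run GAGGAA occurs 1 time in the Bcl2a1d window and 2 times in each of the others. The shorter word GAGGAAGT, which lies within it, stood in 3.2% of promoters and also in 1 promoter each of Bak1 (at -22) and Bad (at -189). The bare GGAA stood in 96.0% of promoters. Pairwise identity over the aligned stretches of the 4 promoters was 95.7% to 99.2%, so 1 shared ancestral sequence is counted 4 times. The word was chosen after these sequences were seen, and a match is letters in a window, not evidence of binding.

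Levels below are log2 intensity relative to the 75th percentile of the same array, so 0 is the level of that percentile and 1 unit is a doubling. Levels of different probes are not comparable, since probes bind with different strength. On each array 50.3% to 55.7% of spots were well above background, and r between arrays within a group was 0.989 to 0.995 across probes, which are not independent replicates. Hnrnpa0 was lower in shRNA cells by both probes: the brighter differed from control by -1.54 before 4-OHT (limma adjusted p = 0.0137) and by -2.10 after it (adjusted p = 0.00597). The arrays lay on 3 slides, and within a treatment the vectors shared none. With slide as a fixed block the Hnrnpa0 differences were -1.38 at both times, with adjusted p = 0.11 and 0.104. The macrophage markers Csf1r, Itgax and Cd14, summed as linear intensity over the 75th percentile, ran from 11.5 to 13.3 on control arrays before 4-OHT and from 33.0 to 40.6 after it. In shRNA cells they ran from 10.3 to 11.3 and from 25.2 to 32.9. Cd14 was by far the brightest of these markers in every group, so the sums mostly follow its probe. Adgre1, the other macrophage marker, was left out of the sums, since it had a value on only 9 of the 12 arrays. Of 7 markers of the line, Kit, Mpo, Itgam, Spi1 and Esr1 were above background on all 12 arrays, Ptprc on the 6 arrays after 4-OHT only, and Cd34 on none. T cell (3 of 4), B cell (2 of 4), erythroid (2 of 4), megakaryocyte (1 of 3) and fibroblast (1 of 4) markers passed background on at least 1 array, with summed levels of at most 0.354 for any of these lists on any array. In bulk RNA a change in the make-up of the cells and a change within each cell cannot be told apart.

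**Figure D1:**
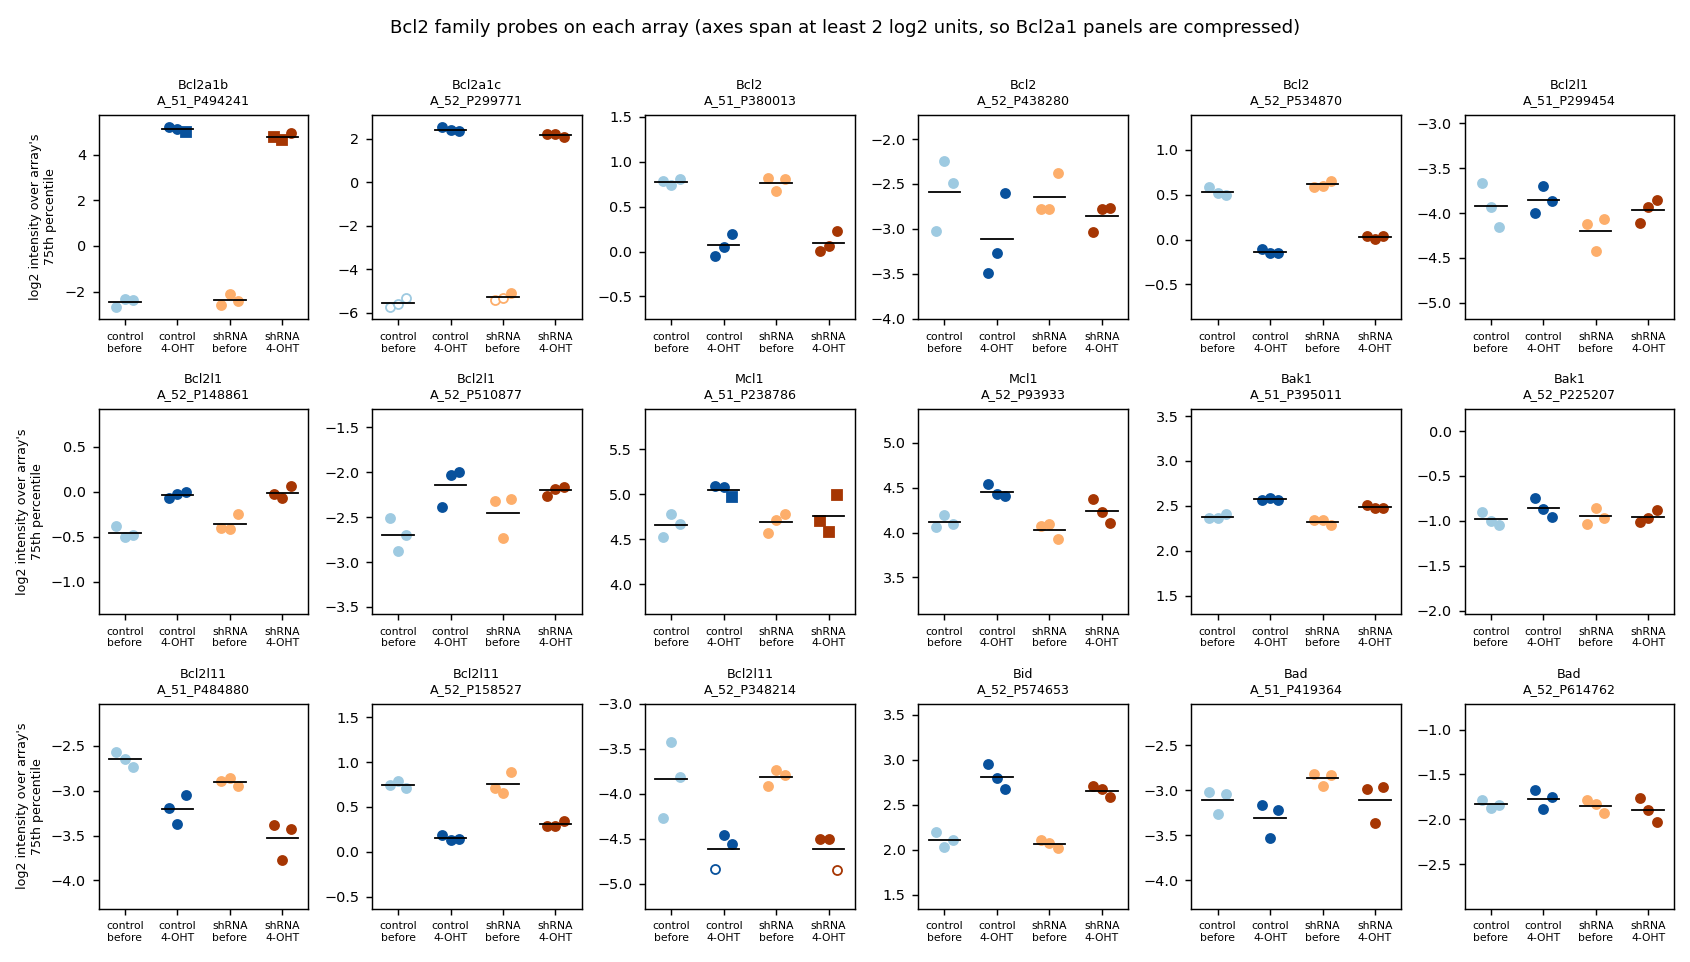
Level of each of the 18 Bcl2 family probes on each of the 12 arrays (log2 intensity over the array's 75th percentile, vertical axis) in the 4 groups (horizontal axis). Points are arrays in the order A, B, C, bars are means, open points are not well above background and squares are saturated; the Bcl2a1b control arrays go from -2.67 or above to 4.98 or above, while in the panels of genes other than Bcl2a1b and Bcl2a1c the groups lie within about 1 unit of each other.

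In control cells 4-OHT changed 13 of the 18 probes, against 39.7% of all probes tested (limma, adjusted p under 0.05 over 22362 probes). The Bcl2a1b probe rose 188-fold, with 1 of its 3 treated arrays saturated, and the Bcl2a1c probe at least 137-fold. Bid, Bcl2l1, Mcl1 and Bak1 rose by less than 1 log2 unit, and Bcl2 and Bcl2l11 fell. Counted by probe, 8 rose, 5 fell and 5 did not pass, where 17.6% of all probes rose and 22.1% fell. The median change of the 18 probes was 0.10, against -0.05 over all probes. In shRNA cells 10 probes passed, 5 up and 5 down, against 37.2% of all probes, of which 16.6% rose and 20.7% fell. Their median change was 0.03, against -0.06 over all probes. Groups of arrays did not overlap for 13 probes in control cells and 13 in shRNA cells, against 50.6% of all probes in each. With slide as a fixed block 11 and 8 of the called probes passed. The share of all probes that passed in that fit is not given, so these counts are no result about the family. Within slide 1 treated control A stood alone against the 3 untreated arrays, and within slide 3 untreated shRNA C stood alone. No called change turned its sign in these fits. A lone array was assumed to vary like the others.

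**Figure D2:**
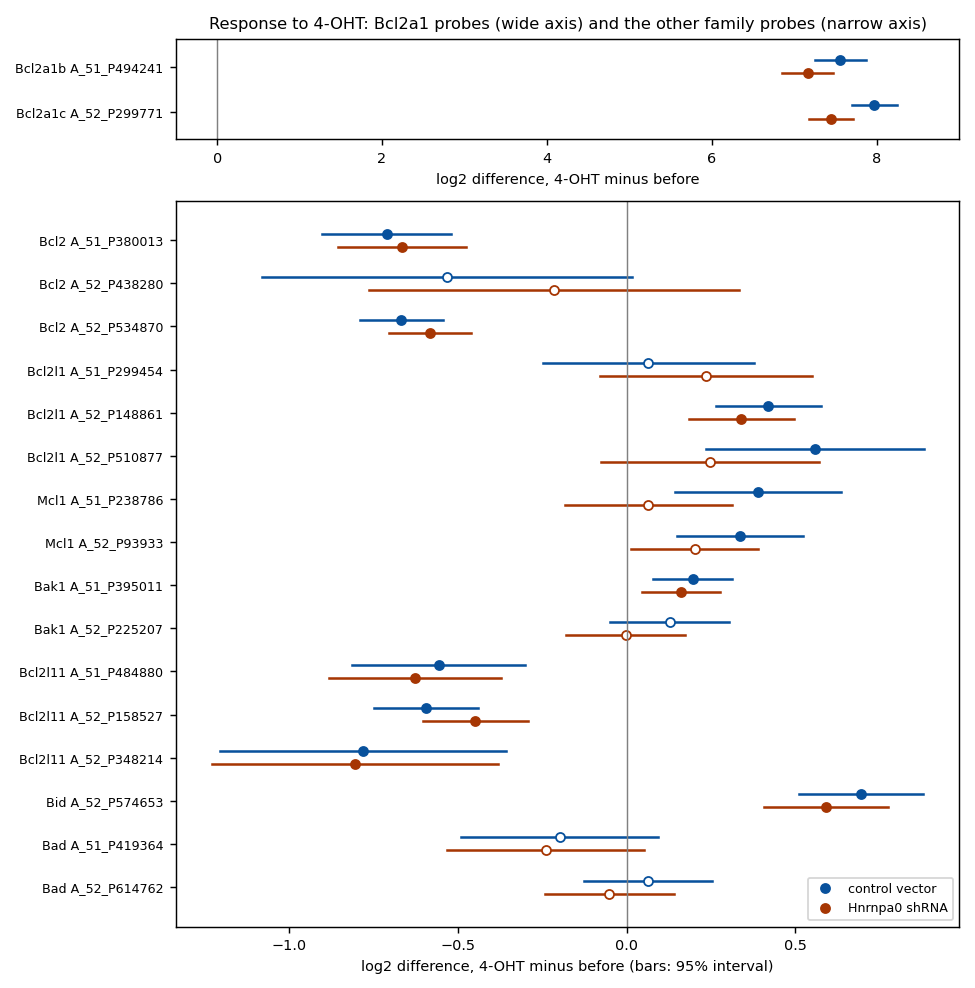
Change of each Bcl2 family probe on 4-OHT (log2 difference, horizontal axis, with 95% interval of the limma fit) in control cells (blue) and Hnrnpa0 shRNA cells (brown), 3 arrays a group. Filled points passed the adjusted threshold; the Bcl2a1 probes lie between 7.16 and 7.97 on their own axis, and the other 16 probes lie within 1 unit of 0.

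Among the survival genes the Bcl2a1 paralogues stood farthest from 0. The Bcl2a1b probe read -2.67, -2.33 and -2.35 on the control arrays A, B and C before 4-OHT and 5.20, 5.14 and 4.98 after it. In shRNA cells it read -2.60, -2.12 and -2.43 before and 4.76, 4.63 and 4.95 after. All 6 treated arrays were far above all 6 untreated ones. The change was 7.56 (SE 0.14, 188-fold, adjusted p = 8.45e-11) in control cells and 7.16 (SE 0.14, 143-fold, adjusted p = 1.47e-10) in shRNA cells. Its spot was saturated on 3 treated arrays, control C and shRNA A and B, so their levels are lower limits. The shRNA arrays A and B also had the 2 highest 75th percentiles of the 12 arrays, 2395 and 2583 intensity units, by which a capped signal is divided.

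The Bcl2a1c probe read -5.72, -5.62 and -5.32 on control arrays before 4-OHT, none of them well above background, and 2.53, 2.38 and 2.34 after it. In shRNA cells it read -5.42, -5.32 and -5.08 before, where only replicate C was above background, and 2.22, 2.23 and 2.05 after. No treated array was saturated. The measured change in control cells was 7.97 (SE 0.12, adjusted p = 2.45e-11), which as a fold is at least 137-fold, set against the lowest signal above background on each array. In shRNA cells it was 7.44 (SE 0.12, 174-fold, adjusted p = 5.78e-11), with a base that 1 of 3 arrays measured. Within slide 1, which held the 3 untreated control arrays and treated control A, the Bcl2a1b change was 7.65 and the Bcl2a1c change 8.08. Within slide 3, with the 3 treated shRNA arrays and untreated shRNA C, they were 7.21 and 7.25. Both probes kept their call under every alternative run, with Bcl2a1b between 6.82 and 7.65 and Bcl2a1c between 5.76 and 8.09 over both vectors.

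The 5 genes whose levels ran most like the Bcl2a1b probe over the 12 arrays, out of 14828 with a value on each, were Lilrb3 (Pearson r = 0.999), Bcl2a1c (r = 0.9988), Pira3 (r = 0.9987), Il18 (r = 0.9983) and Pilrb (r = 0.9982). Lilrb3, Pira3 and Pilrb encode paired immunoglobulin-like receptors of myeloid cells, and Il18 a cytokine. In control cells Lilrb3 averaged -1.06 on the 3 arrays before 4-OHT and 5.25 on the 3 after it. These r values describe the split between treated and untreated arrays and carry no test.

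Bcl2, the founding survival gene, was read by 3 probes, and 2 of them fell. The probe A_51_P380013 (chr1:106612249-106612308, minus strand) read 0.79, 0.74 and 0.81 in control cells before 4-OHT and -0.05, 0.05 and 0.20 after it. Its shRNA values were 0.82, 0.67 and 0.81, then 0.00, 0.06 and 0.23. The changes were -0.71 (SE 0.09, adjusted p = 7.43e-05) and -0.67 (SE 0.09, adjusted p = 0.000135), and treated and untreated arrays did not overlap in either vector. Within slide 3 the shRNA change was -0.71 and just missed the threshold (adjusted p = 0.0562). The probe A_52_P534870 (chr1:106438098-106438157, minus strand), which lists another RefSeq transcript and is printed in 10 spots, read 0.58, 0.52 and 0.50 and then -0.11, -0.15 and -0.15 in control cells. In shRNA cells it read 0.59, 0.60 and 0.65 and then 0.04, 0.01 and 0.04. Its changes were -0.67 (SE 0.06, adjusted p = 4.39e-06) and -0.58 (SE 0.06, adjusted p = 1.4e-05). The falls were 1.64-fold by the first probe and 1.59-fold by the second in control cells.

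The remaining Bcl2 probe, A_52_P438280, was built on a cDNA clone rather than a RefSeq transcript and was dim. It lay between -3.02 and -2.24 in control cells before 4-OHT and between -3.49 and -2.60 after it, so the groups overlapped. Its change was -0.53 (adjusted p = 0.116) in control cells and -0.22 (adjusted p = 0.522) in shRNA cells. In control cells it passed without control replicate A before 4-OHT (-0.75, adjusted p = 0.0374) or control replicate C after it (-0.79, adjusted p = 0.0191).

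Bcl2l1, whose long product Bcl-xL guards mitochondria, moved the other way. Its 10-spot probe A_52_P148861 (chr2:152521752-152521811, minus strand) read -0.38, -0.50 and -0.48 and then -0.07, -0.03 and -0.01 in control cells. The shRNA arrays read -0.41, -0.41 and -0.25 and then -0.03, -0.07 and 0.06. The rise was 0.42 (SE 0.07, 1.34-fold, adjusted p = 0.000768) and 0.34 (SE 0.07, 1.27-fold, adjusted p = 0.0033). With slide as a fixed block the control value was 0.38 (adjusted p = 0.00779), and the shRNA value was 0.23 (adjusted p = 0.0674) and no longer passed. The control call was also lost within slide 1 and the shRNA call within slide 3, where 1 group had a single array.

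The other 2 Bcl2l1 probes lie at the far end of the gene. A_52_P510877 (chr2:152570306-152570365) read -2.51, -2.88 and -2.70 and then -2.38, -2.03 and -1.997 in control cells, a rise of 0.56 (SE 0.15, adjusted p = 0.0111). That call ended with slide as a block, where the change was 0.31 (adjusted p = 0.211). In shRNA cells its change was 0.25 (adjusted p = 0.207), with 95% limits of -0.08 and 0.57. A_51_P299454 was dim, between -4.42 and -3.67 on all arrays, and changed by 0.06 (adjusted p = 0.752) and 0.23 (adjusted p = 0.215).

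Mcl1, a survival protein of rapid turnover, was bright on every array. Its probe A_52_P93933 (chr3:95535570-95535629, plus strand) read 4.07, 4.19 and 4.10 and then 4.54, 4.42 and 4.40 in control cells. The shRNA arrays read 4.07, 4.10 and 3.93 and then 4.37, 4.23 and 4.10. The control rise was 0.34 (SE 0.08, 1.26-fold, adjusted p = 0.00922), and the shRNA change of 0.20 (SE 0.08, adjusted p = 0.086) did not pass, although its arrays did not overlap. Without treated shRNA replicate C the shRNA change was 0.27 (adjusted p = 0.0392).

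The second Mcl1 probe, A_51_P238786 (chr3:95536882-95536941), read 4.52, 4.78 and 4.67 and then 5.09, 5.08 and 4.97 in control cells, a rise of 0.39 (SE 0.11, adjusted p = 0.0176). The value of 4.97, of treated control C, was saturated, so the rise rests in part on a capped level. The call was lost without untreated control A (0.32, adjusted p = 0.0675), without treated control B (0.37, adjusted p = 0.0561) and with slide as a fixed block (0.43, adjusted p = 0.0746). In shRNA cells it was saturated on all 3 treated arrays, which read 4.70, 4.58 and 4.99, so the change of 0.06 (adjusted p = 0.676) is only a lower limit. Under quantile normalization both Mcl1 probes passed in shRNA cells, at 0.32 and 0.27. Both control calls ended when the percentile was taken over spots without an outlier mark (adjusted p = 0.0612 and 0.0528), and that of A_52_P93933 also under median scaling (0.066).

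Bak1, the effector, showed the smallest change that passed. A_51_P395011 (chr17:25204734-25204793, minus strand) read 2.36, 2.36 and 2.40 and then 2.57, 2.58 and 2.57 in control cells. On shRNA arrays it read 2.35, 2.34 and 2.29 and then 2.51, 2.48 and 2.47. The SD of the arrays was 0.01 to 0.03 in each group, and the change was 0.20 (SE 0.05, 1.15-fold, adjusted p = 0.013) and 0.16 (SE 0.05, 1.12-fold, adjusted p = 0.0345). Normexp background correction (adjusted p = 0.161 and 0.234), median scaling (0.127 and 0.14) and the percentile over spots without an outlier mark (0.13 and 0.121) ended both calls. Leaving out treated control B ended both (adjusted p = 0.0506 and 0.0599), and so did leaving out any 1 of the 6 shRNA arrays for the shRNA call, with adjusted p from 0.0575 to 0.103, or untreated control B (0.0535) or C (0.0541). The other Bak1 probe, A_52_P225207, changed by 0.13 (adjusted p = 0.239) in control cells, and in shRNA cells its change had 95% limits of -0.18 and 0.17 (adjusted p = 0.983).

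Of the BH3-only genes, Bcl2l11 fell by all 3 probes in both vectors. Bim binds every survival protein of the family and is known as a death signal after cytokine loss. Its brightest probe, A_52_P158527 (chr2:127903168-127903227, plus strand), read 0.74, 0.79 and 0.71 and then 0.18, 0.13 and 0.15 in control cells. On shRNA arrays it read 0.72, 0.66 and 0.89 and then 0.28, 0.29 and 0.34. The 2 states were clear of each other in both vectors. The change was -0.60 (SE 0.07, adjusted p = 6.12e-05) in control cells and -0.45 (SE 0.07, adjusted p = 0.00052) in shRNA cells, and both calls held under every alternative run, including within slide 1 (-0.56) and within slide 3 (-0.58).

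The 2 dimmer Bcl2l11 probes gave changes in the same direction. A_51_P484880 spans chr2:127888010-127899105 and so crosses an intron, and the design lists 3 RefSeq transcripts of the gene for it. Its sequence is shown as a probe that reads spliced Bcl2l11 RNA.
Bcl2l11 probe A_51_P484880: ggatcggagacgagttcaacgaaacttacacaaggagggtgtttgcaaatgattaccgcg
It read -2.57, -2.65 and -2.74 and then -3.20, -3.38 and -3.05 in control cells, a change of -0.56 (SE 0.12, adjusted p = 0.00298), and -0.63 (SE 0.12, adjusted p = 0.00158) in shRNA cells. A_52_P348214 (chr2:127869853-127870534) also spans more than its 60 bases, and lists a cDNA clone but no RefSeq transcript. It changed by -0.78 (SE 0.19, adjusted p = 0.00775) and -0.81 (SE 0.19, adjusted p = 0.00719), with 1 treated array in each vector not well above background. With slide as a fixed block the latter was -0.83 (adjusted p = 0.061), and within slide 3 the shRNA change of A_51_P484880 was -0.58 (adjusted p = 0.166). These dim probes depended on the background correction in control cells: under normexp their changes there were -0.24 (adjusted p = 0.283) and -0.16 (adjusted p = 0.492).

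The genes most like the A_52_P158527 probe of Bcl2l11 over the 12 arrays were Mtus1 (r = 0.9921), Ly6f (r = 0.991), Nfkbiz (r = 0.9898), Rabggta (r = 0.9893) and Boc (r = 0.9892). In control cells, with 3 arrays at each time, Ly6f averaged -0.74 before and -2.74 after 4-OHT. Nfkbiz, which encodes a nuclear IκB protein, averaged -1.65 and -2.86 on the same arrays.

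Bid, which links death receptors and caspase-8 to mitochondria, rose. Its 1 probe, A_52_P574653 (chr6:120918747-120918806, minus strand), read 2.20, 2.03 and 2.11 and then 2.95, 2.80 and 2.67 in control cells. On shRNA arrays it read 2.11, 2.08 and 2.02 and then 2.71, 2.68 and 2.59. Every treated array lay above every untreated one. The rise was 0.69 (SE 0.08, 1.62-fold, adjusted p = 6.87e-05) and 0.59 (SE 0.08, 1.51-fold, adjusted p = 0.000249). It was 0.84 within slide 1 and 0.64 within slide 3, and its call held under every alternative run.

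Bad, a BH3-only protein held inactive by survival-kinase phosphorylation, did not pass. A_51_P419364 (chr19:6761992-6762051, plus strand) lay between -3.26 and -3.02 and then between -3.53 and -3.16 in control cells, a difference of -0.20 (95% limits -0.49 and 0.09, adjusted p = 0.27). In shRNA cells the difference was -0.24 (95% limits -0.53 and 0.05, adjusted p = 0.178). The other probe named Bad, A_52_P614762 (chr19:6770968-6771027), is placed on the opposite strand and comes from a cDNA clone, so it may not read Bad mRNA. Its differences were 0.06 (adjusted p = 0.602) and -0.05 (adjusted p = 0.67).

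The knockdown of Hnrnpa0, an RNA-binding protein gene of the region lost in del(5q) disease, was compared with the control vector at each time. Before 4-OHT none of the 18 probes passed in limma, against 0.362% of all probes (81 of 22362). The lowest adjusted p was 0.202, and 1 probe had an unadjusted p under 0.05, against 23.3% of all probes. That probe was Bcl2a1c, with a difference of 0.28, where only 1 of the 6 arrays was above background. The median difference of the 18 probes was 0.01, against -0.02 over all probes. Groups did not overlap for 4 of 18 probes, against 32.9% of all probes.

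After 4-OHT none of the 18 probes passed either, against 16.9% of all probes (3787 of 22362). The lowest adjusted p was 0.0659, and 5 probes had an unadjusted p under 0.05, against 35% of all probes. The groups did not overlap for 7 of 18, against 39.4% of all probes, and the median difference was -0.09, against -0.03 over all probes. The 5 probes were those of Bcl2a1b, both Mcl1 probes, and 1 each of Bcl2 and Bcl2l11. They are named because they are few, after their values were seen. With arrays weighted by quality 6 of the 18 passed, 2 higher and 4 lower in shRNA cells, but so did 9874 of the 22362 probes.

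The largest of the 18 differences after 4-OHT was that of Bcl2a1b, at -0.33 (95% limits -0.64 and -0.01, adjusted p = 0.129), between arrays of which 1 control and 2 shRNA were saturated. Bcl2a1c, which was saturated nowhere, differed by -0.25 (95% limits -0.52 and 0.02, adjusted p = 0.171), and its 3 shRNA arrays lay below its 3 control arrays. The Mcl1 probes differed by -0.29 (adjusted p = 0.0929, saturated on all shRNA arrays and on 1 control array) and -0.22 (95% limits -0.41 and -0.03, adjusted p = 0.0956). Bcl2 A_52_P534870 was higher in shRNA cells by 0.16 (95% limits 0.04 and 0.29, adjusted p = 0.0659). For Bcl2l11 the probes lay on both sides of 0, with A_51_P484880 at -0.32 (adjusted p = 0.08), A_52_P158527 at 0.15 (adjusted p = 0.148) and A_52_P348214 with 95% limits of -0.43 and 0.42 (adjusted p = 0.992). Bid differed by -0.15 (95% limits -0.33 and 0.03, adjusted p = 0.224), and Bak1 A_51_P395011 by -0.09 (95% limits -0.20 and 0.03, adjusted p = 0.268). The macrophage marker sums given above, mostly Cd14, were also lower on the shRNA arrays after 4-OHT (at most 32.9, against at least 33.0 on control arrays). Control and shRNA means were 5.19 and 4.80 for Cd14, -0.75 and -1.05 for Itgax, but -3.26 and -3.14 for Csf1r. Cd14 read 4.62 to 5.01 on treated shRNA arrays, near the saturated Mcl1 probe at 4.58 to 4.99, and its own saturation was not checked. The part of maturation in the differences between vectors was not tested, and slide and vector cannot be told apart within a treatment.

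**Figure D3:**
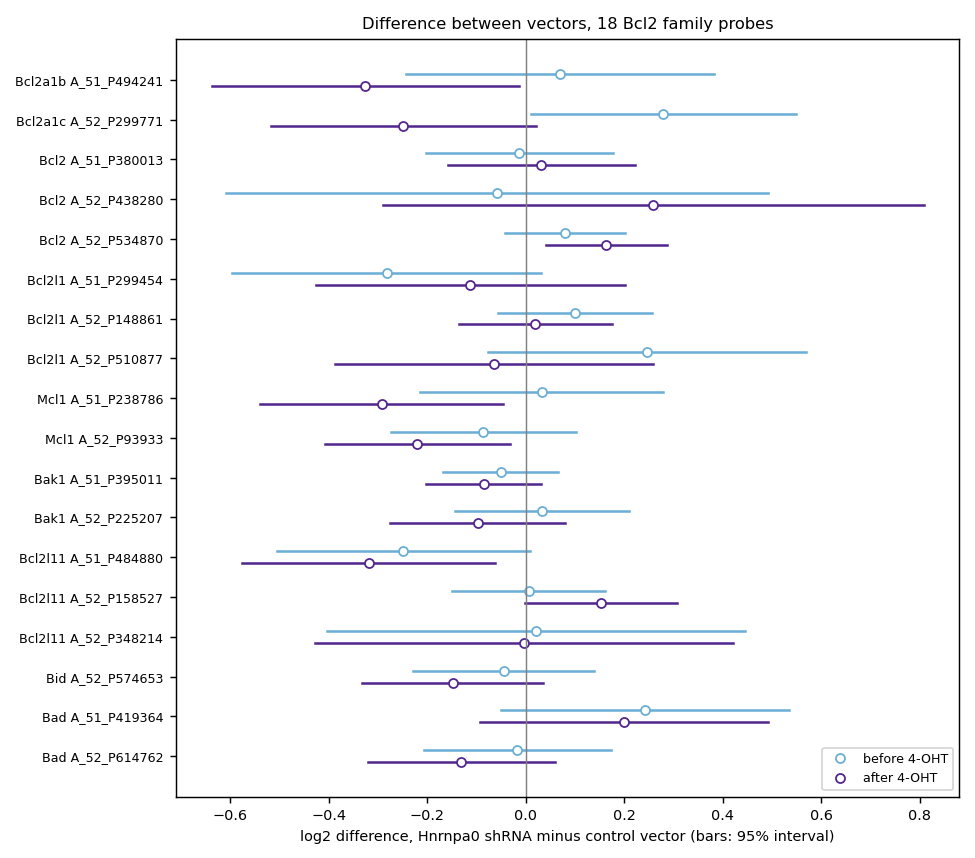
Difference between Hnrnpa0 shRNA and control cells for each of the 18 probes (log2, horizontal axis, with 95% interval of the limma fit) before 4-OHT (light blue) and after it (purple), 3 arrays a group. Open points did not pass the adjusted threshold, and every point is open; the largest in size is -0.33, for Bcl2a1b after 4-OHT.

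Whether the shRNA changed the response to 4-OHT itself was tested as the difference between the 2 responses. None of the 18 probes passed in limma, against 0.00447% of all probes (1 of 22362), and 1 of 18 had an unadjusted p under 0.05, against 5.12% of all probes. That probe was Bcl2a1c, whose rise differed by -0.53, smaller in shRNA cells (95% limits -0.91 and -0.15, unadjusted p = 0.0114, adjusted p = 0.955). Its untreated level was below background on 5 of 6 arrays, so the size of this difference rests on unmeasured values. For Bcl2a1b the difference was -0.40 (95% limits -0.84 and 0.05), but 1 treated control array and 2 treated shRNA arrays were saturated, so it rests on capped levels. It was 0.08 (-0.09 and 0.26) for Bcl2 A_52_P534870, -0.10 (-0.36 and 0.16) for Bid and 0.15 (-0.07 and 0.37) for Bcl2l11 A_52_P158527. The probe count that passed in control cells and not in shRNA cells is no sign that the vectors differ.

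The rest of the pathway was described with a list of 50 other apoptosis genes, of which 48 had a probe and 42 were tested on 1 probe each. In control cells 5 rose, 11 fell and 26 did not pass, and in shRNA cells 2 rose, 11 fell and 29 did not pass. The share called was 16 of 42 in control cells and 13 of 42 in shRNA cells, against 39.7% and 37.2% of all probes. The medians over the list were -0.16 and -0.20, against -0.05 and -0.06 over all probes. Some of the 42 probes were saturated on all 12 arrays and others on most, since the brightest tested probe of a gene was taken. A capped signal cannot show the change of its RNA, and these probes are part of the counts and medians. Of all probes 17.6% rose and 22.1% fell in control cells, and 16.6% rose and 20.7% fell in shRNA cells. Beside these shares the absence of a rise among 6 genes is no result about a list. Among Bcl2 relatives 4 of 6 fell in control cells and 2 of 6 in shRNA cells, with no rise. Among other BH3-only genes 2 of 6 fell in control cells and 4 of 6 in shRNA cells, again with no rise. Among inhibitors of apoptosis and their antagonists 2 rose and 2 fell of 10 in control cells, and 1 rose and 2 fell in shRNA cells. Among caspases and the apoptosome 2 rose and 1 fell of 6, then 1 and 1. Among the 14 partners 1 rose and 2 fell in control cells, and 2 fell in shRNA cells.

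Only 2 of the 42 genes changed at least 2-fold in either vector, and both are BH3-like genes known from hypoxia and mitophagy. Bnip3 ran from 5.03 to 5.15 on untreated control arrays, 1 of them saturated, and from 2.72 to 2.76 on treated ones, and fell by 2.35 (SE 0.08, 5.1-fold, adjusted p = 8.16e-09). In shRNA cells its means were 5.15 and 2.85, and since it was saturated on all 3 untreated shRNA arrays the fall was at least 4.94-fold. Bnip3l (Nix) fell 2.07-fold in control cells (adjusted p = 3.93e-05) and 2.32-fold in shRNA cells (adjusted p = 1.51e-05). At least 2-fold changes past the threshold were seen in 10% and 9.17% of all probes.

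**Figure D4:**
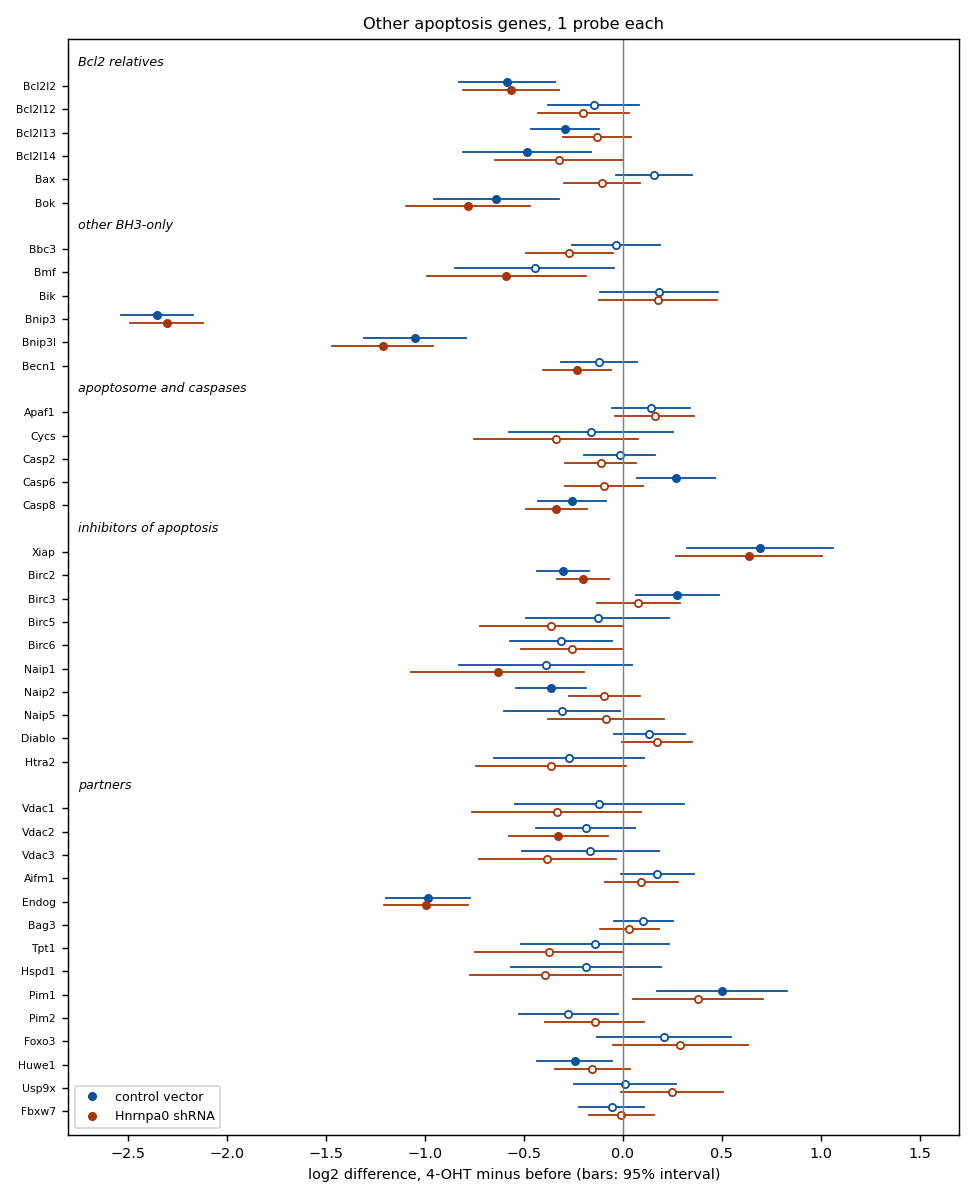
Change of other apoptosis genes of the list on 4-OHT (log2 difference, horizontal axis, with 95% interval of the limma fit) in control (blue) and Hnrnpa0 shRNA cells (brown), 1 probe a gene and 3 arrays a group. Filled points passed the adjusted threshold; Bnip3 at -2.35 and Bnip3l at -1.05 in control cells lie farthest from 0.

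Between vectors 2 of the 42 genes passed before 4-OHT, against 0.362% of all probes, and 12 after it, against 16.9%. Before 4-OHT Bcl2l12, a nuclear and cytosolic Bcl2 relative, was lower in shRNA cells (-0.61, adjusted p = 0.0424). After 4-OHT the genes that passed included Naip2 and Bcl2l13, which were higher, and Bcl2l12, Bax, Bbc3 (Puma), Bnip3l, Casp2, Casp6, Birc3, Birc6 and Naip1, which were lower. Naip1 was above background on only 6 of the 12 arrays. Its treated shRNA arrays read -5.83 to -5.56, below the lowest signal above background on each (-5.30 to -5.04). Its level there was thus not measured. Bcl2l12 ran from 1.27 to 1.55 on treated control arrays and from 0.71 to 0.77 on treated shRNA arrays (-0.67, adjusted p = 0.0118). Bax, the effector beside Bak1, had means of 4.14 and 3.72 (-0.42, adjusted p = 0.0175), and Bbc3 differed by -0.54 (adjusted p = 0.0151). With slide as a fixed or random block none of the 42 passed at either time. Hnrnpa0, the gene knocked down, also lost its call at both times in these fits. The share of all probes there is not given, so the absence of calls is no result about these genes. Leaving out any single array other than treated control A changed the count of 2 before 4-OHT, to 6 without untreated shRNA A and to 0 without any of the others, and without treated control B or treated shRNA C the count of 12 after 4-OHT was 1 and 2.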

How the data were processed

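Per the file headers, the authors scanned one-colour (Cy3) Agilent arrays of design 014868 with Feature Extraction 9.5.3.1 as the reading software (version 9.5 in the submitters' processing notes). The authors' deposited spot values are background-subtracted linear intensity, not scaled across arrays, and their summary table repeats that intensity within 0.497%. Probe names, sequences and mm7 positions are those of the files, and slides were identified by header. Slide 1 held the untreated control arrays and treated control A. Slide 2 held treated control B and C and untreated shRNA A and B. Slide 3 held the others.

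Each probe value is the mean over its spots, less those the scanner software marked as outliers. It was expressed as log2 intensity minus the 75th percentile of all spots of the array that are not controls (1196 to 2583). Tested probes were well above background on 3 or more of 12 arrays and had a value on 2 or more in every group. limma 3.58.1 (R 4.3.3) used 4 group means over all 12 arrays in 1 fit, and p-values were adjusted by Benjamini-Hochberg over 22362 probes, with a threshold of 0.05. SE and 95% limits are those of the fit, and SD is over 3 arrays. A fold against a group wholly below background, or from one wholly saturated, is a lower bound. The number of arrays limits the precision.

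The members and lists were chosen with earlier results of these data known. A first fit took the percentile over spots without an outlier mark, and this was replaced after its results were seen. It is kept as an alternative. Of the apoptosis list, genes were named if changed at least 2-fold past the threshold by 4-OHT, or past it between vectors; 1 gene of the list is counted but not reported here by name. Replicate letters were not used to pair the arrays in the main fit. Correlations of deviations between arrays of the same letter ran from -0.0192 to 0.238 within a vector. They do not settle whether a letter names the same clone before and after 4-OHT. Promoters were searched with Python 3.11.15 and Biopython 1.88, and figures drawn with matplotlib 3.10.9. The fit was also run on simulated data with independent noise for each probe and array and no slide effect. That run cannot check calls between vectors, which share no slide within a treatment.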

Additional observations from a re-analysis of the deposited data

How the results depend on the processing

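Each count was recomputed under 25 alternatives, 1 of them chosen after seeing the data, and the 4-OHT counts also within a slide. A count below without the share of all probes beside it describes that fit. It is no result about the members or the list. No called probe change reversed: over 23 of them 551 of 590 recomputed values kept the call and 39 did not, and 11 kept it throughout. In control cells 8 of 9 genes passed with 1 probe a gene, where the share over all genes is not given. The percentile over spots without an outlier mark gave 10 and 9 probes in place of 13 and 10, and with it 231 and 1883 of all probes differed between vectors in place of 81 and 3787. Between vectors after 4-OHT 1 member probe passed under normexp and 6 under array weights. Array weights were estimated gene by gene, from 0.253 to 4.34. limma's default estimate stopped before it converged, with a weight of 38.7 for 1 array, and called 17, 14, 1, 12 and 6 member probes in the 5 contrasts. Of all 22362 probes it called 14228, 15200, 7147, 13658 and 3807.

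The apoptosis list gave 9 (control), 7 (shRNA) and 0 (vectors before 4-OHT) under normexp. Without a filter it gave 8 in shRNA cells, 0 between vectors before 4-OHT and 4 after. Median scaling and slide as a fixed or random block gave 0 before 4-OHT, and both slide blocks 0 after it. Array weights gave 25, 28, 7 and 28, in fits that called 12332, 13002, 3997 and 9874 of all 22362 probes. The Hnrnpa0 difference before 4-OHT was -1.38 with slide as a fixed block and -1.57 as a random block (adjusted p = 0.0689), where the slides' consensus correlation was 0.376. It lost its call without untreated control B (-1.54) or C (-1.58) or untreated shRNA B (-1.58).

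Without 1 array, member probes called ran from 11 to 14 in control and from 9 to 10 in shRNA cells, with 0 in the other contrasts. Over all probes the calls ran from 7200 to 9171 in control and from 6648 to 9177 in shRNA cells. Between vectors they ran from 2 to 932 before 4-OHT and from 225 to 4654 after it. List genes ran from 11 to 18, 8 to 15, 0 to 6 and 1 to 15, with 0 for the difference between responses, and Hnrnpa0 from -1.76 to -1.30. With the replicate block 14 and 11 member probes passed, and 0 between vectors. It added Bcl2 A_52_P438280 in control cells (adjusted p = 0.0395) and Bad A_51_P419364 in shRNA cells (0.0282), in a pairing that the letters alone do not give.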
